A study of Mus musculus with 18 samples.

Results

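The BCL2 family decides whether a cell under stress keeps its mitochondria intact, and the genes described here are 10 of its members: the pro-survival genes Bcl2, Bcl2l1 and Mcl1, the pore-forming effector genes Bax and Bak1, and the BH3-only genes Bcl2l11, Bid, Bbc3, Bad and Pmaip1. They were chosen by name, as the probe sets that carry each gene's symbol and no other. Of the 10 genes, 9 had such a probe set (11 probe sets, among 22180 genes tested), and 8 stood above background in at least 1 group. Bax expression was not analysed here. Background is the 95th percentile of the mean log2 values of olfactory and vomeronasal receptor genes in a group, and a gene at or under it is called not measurable.

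NaF cells, a line from a mouse mammary carcinoma, were profiled on 18 Affymetrix arrays that form 6 groups of 3. The series asked what ligands of retinoic acid receptors (RAR) and PPARδ do to gene expression, and its title adds saturated fatty acids. In DMEM with 10% FBS from which charcoal had removed lipids and hormones, given from 48 hours before the ligand, cells received retinoic acid (the natural RAR ligand), TTNPB (a synthetic RAR agonist) or GW1516 (a synthetic PPARδ agonist), each at 1 µM for 6 hours, or were controls without ligand. In full medium (DMEM with 10% FBS) they received palmitate, a saturated fatty acid, at 10 µM for 6 hours, or were controls. All groups were this same line. The labels do not say whether replicates were separate cultures, so the p-values cover only the spread among these arrays.

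In healthy cells the proteins BCL2, BCL-XL (from Bcl2l1) and MCL1 hold the effectors BAX and BAK in check. BH3-only proteins such as BIM (from Bcl2l11), BID, PUMA (from Bbc3), BAD and NOXA (from Pmaip1) report damage, loss of growth factor or stress, and either block the pro-survival proteins or activate the effectors. Once freed, the effectors open the outer mitochondrial membrane, cytochrome c leaves and caspases are switched on. In the mammary gland, BIM is known for clearing the lumen of ducts and MCL1 for keeping milk-producing cells alive.

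Over all probe sets the median log2 value was 1.06 to 1.32 for the 12 arrays in charcoal-treated serum but 0.47 to 0.55 for the 6 in full medium, so levels are compared only within a serum, and never between genes, whose probes differ. Background was 1.15 with retinoic acid, 1.29 with TTNPB, 1.30 with GW1516 and 1.31 in charcoal controls, and 0.63 with palmitate and 0.59 in full-medium controls. GW1516 replicate 3 stood apart: its values lay 0.231 on average from its group's mean, against 0.0816 to 0.145 for the 17 other arrays. Of 7 measured markers of mammary epithelium, 5 were above background in every charcoal group and 4 in both full-medium groups. The luminal keratin gene Krt18 stood at 8.05 with retinoic acid and 7.99 in charcoal controls. Another keratin gene, Krt8, was above background but close to it with retinoic acid and in charcoal controls. The epithelial adhesion gene Epcam, at 1.41 with retinoic acid and 1.51 in charcoal controls, was also close to background, and Krt14 and Cldn7 were under it in every group. Of the 7, Erbb2, a receptor kinase gene of mammary tumours, fell with retinoic acid, to 6.82 ± 0.18 against 7.25 ± 0.08 in charcoal controls (SD, n = 3 each; log2 change -0.43, limma adjusted p = 0.0152). That call was lost without charcoal control 2 (0.0553) or 3 (0.0655) or retinoic acid replicate 3 (0.0846), and after the arrays were centred on their medians (0.165). Its part in the results on the family was not tested. No measured marker of fibroblasts, immune cells, endothelium or adipocytes passed the test in any ligand or palmitate comparison. The summed fibroblast markers, for example, ran from 22.1 to 23.7 with retinoic acid and from 21.3 to 23.1 in charcoal controls. Fibroblast markers Vim (10.62 and 10.59) and Pdgfra (5.65 and 4.88) stood well above background with retinoic acid and in charcoal controls. So did the endothelial marker Cdh5 (8.73 and 8.90). Of 8 fibroblast markers, 6 were above background with retinoic acid and 3 in charcoal controls, where background itself was higher (1.31, against 1.15). The markers that differed were Col3a1 (1.28 with retinoic acid and 1.26 in charcoal controls), Col1a2 (1.21 and 1.14) and Acta2 (1.20 and 0.89). At an unadjusted limma p below 0.05 there were 1 fibroblast and 1 endothelial marker with retinoic acid, against 16.4% of all genes.

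Bcl2 rose with each of the 3 ligands, and no other measured member passed the test in any ligand or palmitate comparison. A gene passed where limma's Benjamini-Hochberg adjusted p, taken over all 22180 genes, was below 0.05. Of the 9 measured members 1 passed with retinoic acid, against 5.29% of all genes. With TTNPB 1 passed, against 1.26% of all genes, and with GW1516 1 passed, against 2.57%. With palmitate none passed, against 0.681% of all genes, and 1 had an unadjusted limma p below 0.05, against 7% of all genes. At that unadjusted level there were 3 members with retinoic acid, against 16.4% of all genes, 2 with TTNPB, against 11.2%, and 3 with GW1516, against 15.4%, 1 of them being Bak1, whose value rests on GW1516 replicate 3 (-0.46, and -0.08 without it). The 3 ligand comparisons share the same 3 charcoal controls, so their results are not independent of each other.

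Bcl2 encodes the founding survival protein of the family. The gene (Entrez 12043, read by probe set 17226043) spans 106538176 to 106714290 of chromosome 1 on GRCm38.p6, the build of every position given here. Its log2 values were 6.65, 7.07 and 6.73 with retinoic acid, 6.49, 6.41 and 6.48 with TTNPB, 6.48, 6.68 and 6.39 with GW1516, and 5.86, 5.72 and 6.01 in charcoal controls. All 9 ligand arrays lay above all 3 control arrays. For 5.55% of all genes the 9 ligand arrays lay on the same side of these controls, above or below. In order of mean level, retinoic acid (6.82 ± 0.22) came before GW1516 (6.52 ± 0.15), TTNPB (6.46 ± 0.04) and the charcoal control (5.87 ± 0.14; SD, n = 3 each). The arrays of retinoic acid and GW1516 overlapped, as did those of GW1516 and TTNPB, while each ligand mean lay 0.60 or more above the control mean, beside SDs of at most 0.22.

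The log2 change of Bcl2 was 0.95 ± 0.14 with retinoic acid (SE, 95% interval 0.65 to 1.25), a 1.93-fold rise with a limma adjusted p of 0.000499. It was 0.60 with TTNPB (interval 0.30 to 0.89, 1.51-fold, limma adjusted p = 0.0438) and 0.65 with GW1516 (interval 0.35 to 0.95, 1.57-fold, limma adjusted p = 0.0194). These calls differed in how firmly they stood. The retinoic acid call was kept in all 16 other settings tried, with adjusted p between 0.00131 and 0.00586 when any array of the comparison was left out. Its value was lowest, at 0.48 (adjusted p = 0.0409), with the mean of both Bcl2 probe sets in place of the brighter one. The TTNPB call was lost when any 1 of its 6 arrays was left out (adjusted p = 0.0632 to 0.164): 0.132, 0.164 and 0.0632 without charcoal control 1, 2 and 3, and 0.155, 0.12 and 0.137 without TTNPB replicate 1, 2 and 3. The GW1516 call was lost without charcoal control 1 (0.0628), charcoal control 2 (0.0976) or GW1516 replicate 2 (0.0579), and kept without the array that stood apart, GW1516 replicate 3 (log2 change 0.71, adjusted p = 0.0118). On its own 6 arrays the GW1516 comparison gave an adjusted p of 0.235. With the mean of both probe sets the changes were 0.38 with TTNPB (adjusted p = 0.219) and 0.47 with GW1516 (0.0656), and neither passed. A second Bcl2 probe set, 17216395, was under background in every group, at 0.89 both with retinoic acid and in charcoal controls.

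**Figure D1:**
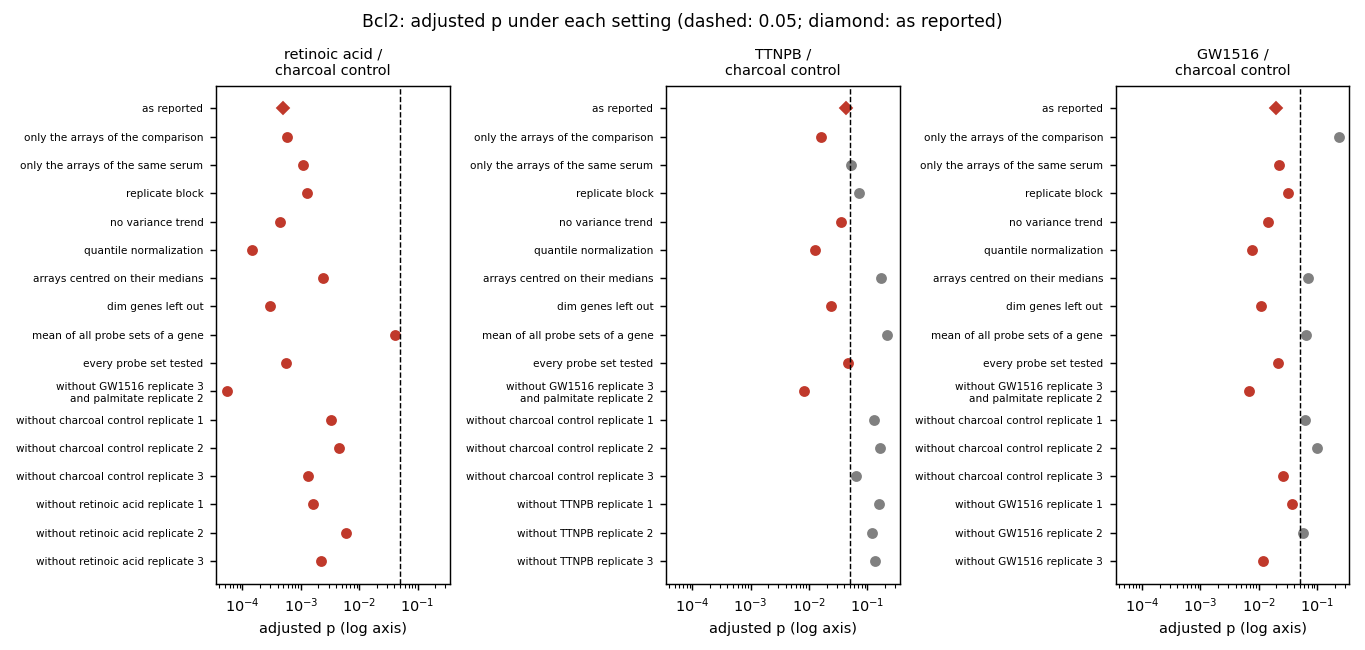
Adjusted p of Bcl2 (horizontal log axis) for retinoic acid, TTNPB and GW1516 against the charcoal control, with 1 point per setting down the page, a diamond for the value in the text and a dashed line at 0.05. Red points passed: all 16 other settings did for retinoic acid, 6 for TTNPB and 10 for GW1516.

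With palmitate, Bcl2 read 3.83, 3.41 and 3.63, against 3.59, 3.86 and 3.49 in full-medium controls. Of the palmitate arrays 2 lay within the range of the controls and 1 below it, and the log2 change was -0.03 (95% interval -0.32 to 0.27), so that a change as large as that with any of the 3 ligands lay outside the interval. Serum, dose, ligand and the median log2 value of the arrays all differ between palmitate and the ligands and cannot be told apart. The palmitate effect minus the retinoic acid effect was -0.98 ± 0.20 for Bcl2 (SE, interval -1.40 to -0.56, limma adjusted p = 0.0118), 1 of the 9 measured members to pass that test, against 2.56% of all genes. At an unadjusted p below 0.05 there were 2 members, against 12.6% of all genes. With the mean of both Bcl2 probe sets the difference was -0.43 and did not pass (adjusted p = 0.326). The palmitate effect minus the GW1516 effect was -0.68 (interval -1.10 to -0.26, limma adjusted p = 0.121), and no member passed there, against 1.26% of all genes (1 at an unadjusted p below 0.05, against 11% of all genes).

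The other pro-survival genes did not pass in any comparison. Bcl2l1, which encodes BCL-XL (chromosome 2, 152758732 to 152833803), read 4.86, 4.95 and 4.91 with retinoic acid, 4.61, 4.94 and 4.69 with TTNPB, 4.86, 5.15 and 5.31 with GW1516, and 4.82, 4.92 and 5.18 in charcoal controls. The groups overlapped, with log2 changes of -0.07, -0.22 and 0.14 in that order, the last being 0.03 without GW1516 replicate 3. With palmitate it read 4.74, 4.80 and 4.82, against 4.50, 4.52 and 4.40 in full-medium controls. Those groups did not overlap, which held for 1 of the 9 measured members and for 15.2% of all genes. The log2 change was 0.31 (interval 0.03 to 0.59, unadjusted p = 0.0306, limma adjusted p = 0.583), which did not pass.

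Mcl1, whose short-lived protein is made and destroyed within hours (chromosome 3, 95656944 to 95663179), read 5.98, 6.13 and 5.74 with retinoic acid, 5.82, 6.18 and 6.22 with TTNPB, 6.30, 6.34 and 6.75 with GW1516, and 6.30, 6.11 and 6.35 in charcoal controls. Each ligand group overlapped the control group. Its log2 changes were -0.30 with retinoic acid (interval -0.84 to 0.23), -0.18 with TTNPB and 0.21 with GW1516 (0.07 without GW1516 replicate 3), and the lowest limma adjusted p was 0.631. With palmitate it read 4.60, 3.50 and 3.78, against 3.71, 4.29 and 4.76 in full-medium controls, a wide spread within both groups (log2 change -0.29, interval -0.83 to 0.24). A second Mcl1 probe set, 17407826, was just above background, at 1.67 with retinoic acid and 1.69 in charcoal controls.

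**Figure D2:**
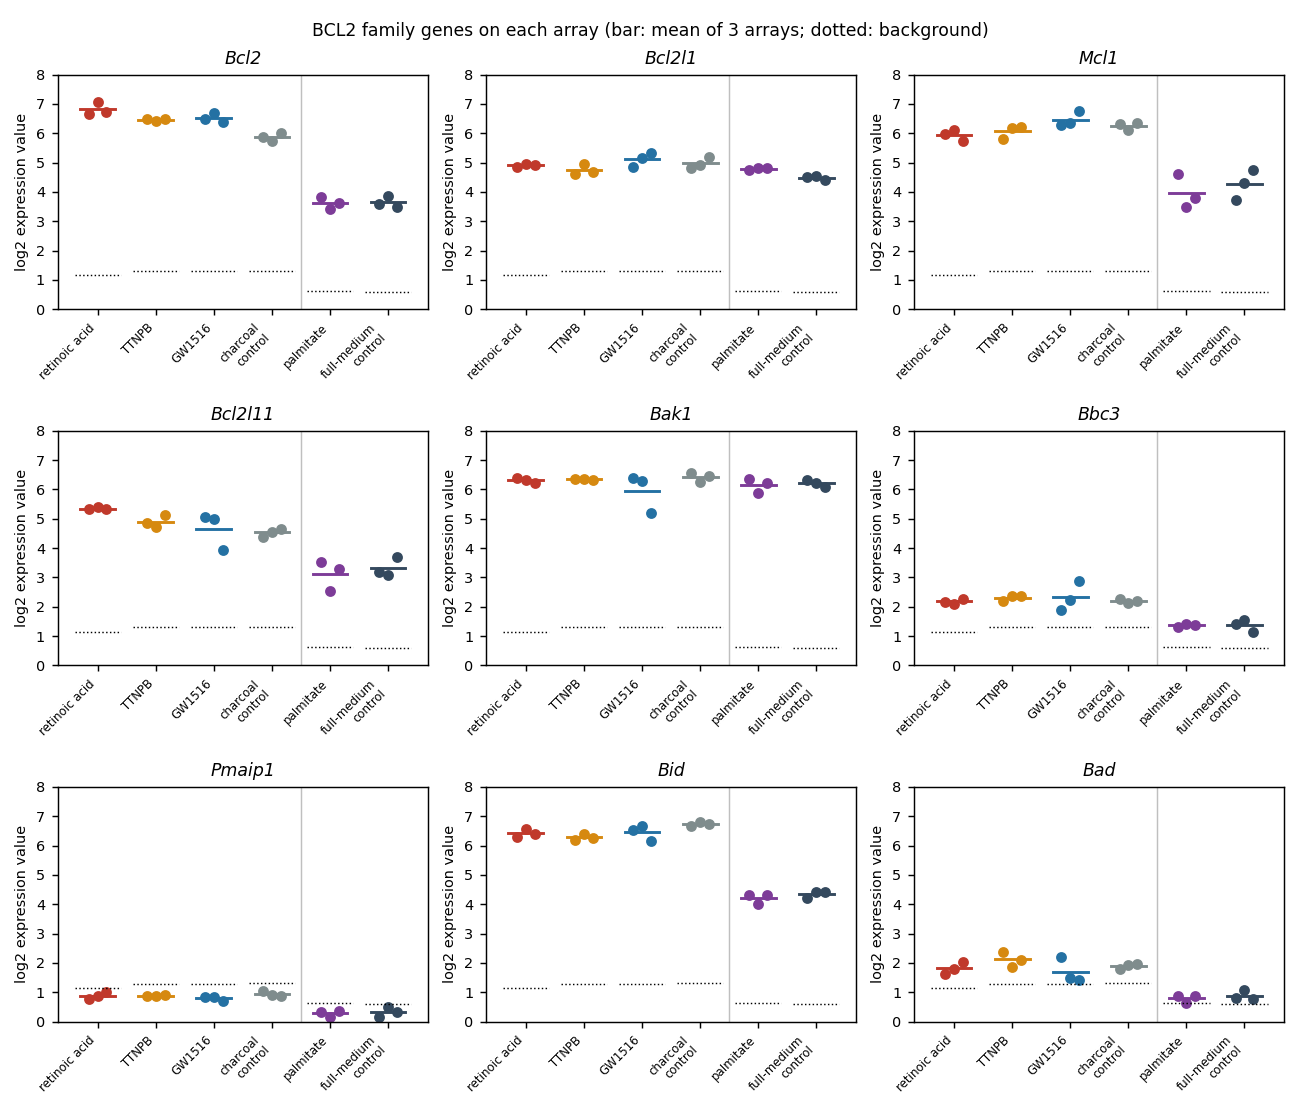
Deposited log2 value (vertical axis) of each measured BCL2 family gene on every array, 1 panel per gene, with the treated groups left of their control in each serum. Points are arrays, bars are means of 3 arrays and dotted lines the group's background. In the Bcl2 panel all 9 ligand arrays lie above the charcoal controls, in the Bid panel all 9 lie below them, and Pmaip1 has its means under background in every group. For 5.55% of all genes the 9 ligand arrays lie on the same side of these controls.

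Among the effectors, Bak1 was measured. It encodes BAK, which sits in the outer mitochondrial membrane (chromosome 17, 27019812 to 27028627). Its log2 values were 6.38, 6.34 and 6.22 with retinoic acid, 6.36, 6.36 and 6.32 with TTNPB, 6.40, 6.29 and 5.19 with GW1516, and 6.55, 6.27 and 6.45 in charcoal controls. Apart from GW1516 replicate 3, every charcoal-serum array lay between 6.22 and 6.55. The log2 change was -0.11 with retinoic acid, -0.08 with TTNPB and -0.46 with GW1516 (unadjusted p = 0.0453, limma adjusted p = 0.31), and without GW1516 replicate 3 that last value was -0.08 (adjusted p = 0.784). With palmitate Bak1 read 6.35, 5.89 and 6.20, against 6.31, 6.22 and 6.09 in full-medium controls (log2 change -0.06).

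Of the BH3-only genes, Bcl2l11 had the largest change with retinoic acid, and Bid had it with TTNPB and GW1516. The GW1516 order turned on replicate 3: without that array Bcl2l11 changed by 0.50 and Bid by -0.14. Bcl2l11 encodes BIM, a sensor of lost growth signals (probe set 17375961, chromosome 2, 128126038 to 128162547). Its log2 values were 5.32, 5.39 and 5.34 with retinoic acid, 4.85, 4.71 and 5.11 with TTNPB, 5.08, 4.99 and 3.93 with GW1516, and 4.37, 4.56 and 4.66 in charcoal controls. The arrays of retinoic acid and of TTNPB all lay above those of the controls, and those of GW1516 fell on both sides. With retinoic acid the log2 change was 0.82 ± 0.27 (SE, interval 0.25 to 1.38, unadjusted p = 0.00698, limma adjusted p = 0.0945), which did not pass. It passed when the 6 arrays of the comparison were fitted alone (adjusted p = 0.0015), a fit that leaves out the spread of GW1516 replicate 3, and when that array and palmitate replicate 2 were both left out (adjusted p = 0.00125). Palmitate replicate 2 did not stand apart over all genes (0.113 from its group's mean, where other arrays reached 0.145). It held the lowest palmitate value of Bcl2l11 (2.52), so leaving it out also removes spread of this gene.

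The change of Bcl2l11 was 0.36 with TTNPB (interval -0.21 to 0.92, limma adjusted p = 0.731) and 0.13 with GW1516 (interval -0.43 to 0.69). The GW1516 value turned on replicate 3: it was 0.50 without that array (adjusted p = 0.251), and -0.07 and -0.03 without replicate 1 and 2. In palmitate Bcl2l11 read 3.51, 2.52 and 3.30, against 3.17, 3.10 and 3.71 in full-medium controls, and those groups overlapped (log2 change -0.22, interval -0.78 to 0.35). The palmitate effect minus the retinoic acid effect was -1.03 (interval -1.83 to -0.24, limma adjusted p = 0.205).

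Bid, whose protein carries the signal of death receptors to the mitochondrion after caspase cleavage (chromosome 6, 120893119 to 120917062), stood on the other side of the control. It read 6.28, 6.57 and 6.41 with retinoic acid, 6.19, 6.40 and 6.26 with TTNPB, 6.54, 6.67 and 6.14 with GW1516, and 6.68, 6.81 and 6.74 in charcoal controls. All 9 ligand arrays lay below all 3 control arrays, where 5.55% of all genes had the 9 on the same side, above or below. The highest GW1516 value (6.67) was close to the lowest control (6.68). The log2 changes were -0.32 with retinoic acid (interval -0.61 to -0.04, limma adjusted p = 0.215), -0.46 with TTNPB (interval -0.74 to -0.18, adjusted p = 0.12) and -0.30 with GW1516 (adjusted p = 0.299), and none passed. Without GW1516 replicate 3 the GW1516 value was -0.14 (adjusted p = 0.568). The TTNPB value passed on its own 6 arrays (adjusted p = 0.0329), after quantile normalization (0.0433) and without GW1516 replicate 3 and palmitate replicate 2 (0.00871), where the retinoic acid value passed as well (0.0398). These 2 arrays held the lowest Bid value of their groups (6.14 and 4.01), so leaving them out also removes spread of this gene. With palmitate Bid read 4.31, 4.01 and 4.31, against 4.21, 4.41 and 4.41 in full-medium controls (log2 change -0.14).

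Arrays without overlap were not rare in these comparisons, and the members are to be read against that. With retinoic acid 3 of 9 measured members separated from the control (Bcl2 and Bcl2l11 higher, Bid lower), against 24.1% of all genes. With TTNPB 3 of 9 did (again Bcl2 and Bcl2l11 higher, Bid lower), against 17.9% of all genes, and with GW1516 3 of 9 (Bcl2 higher, Bid lower and Pmaip1, which was under background), against 16.3%.

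Bbc3, which encodes the p53 target PUMA (chromosome 7, 16308398 to 16318334), lay low but above background. Its log2 values ran from 2.11 to 2.27 with retinoic acid, from 2.20 to 2.37 with TTNPB, from 1.89 to 2.87 with GW1516 and from 2.14 to 2.27 in charcoal controls, and from 1.29 to 1.43 with palmitate against 1.15 to 1.54 in full-medium controls. Its log2 changes were between -0.01 with retinoic acid and 0.13 with GW1516 (-0.13 without GW1516 replicate 3). Bad, which is held inactive by survival kinases (chromosome 19, 6941861 to 6951905), ran from 1.62 to 2.02 with retinoic acid, from 1.88 to 2.37 with TTNPB, from 1.41 to 2.20 with GW1516 and from 1.79 to 1.98 in charcoal controls. Its log2 changes were -0.09, 0.22 and -0.20 in that order, and -0.08 with palmitate. The GW1516 value was -0.45, -0.10 and -0.06 without replicate 1, 2 and 3. Every group of both genes overlapped its control. Pmaip1 was not measurable, with means of 0.80 to 0.93 in charcoal serum, under background in each group, so no fold is given.

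**Figure D3:**
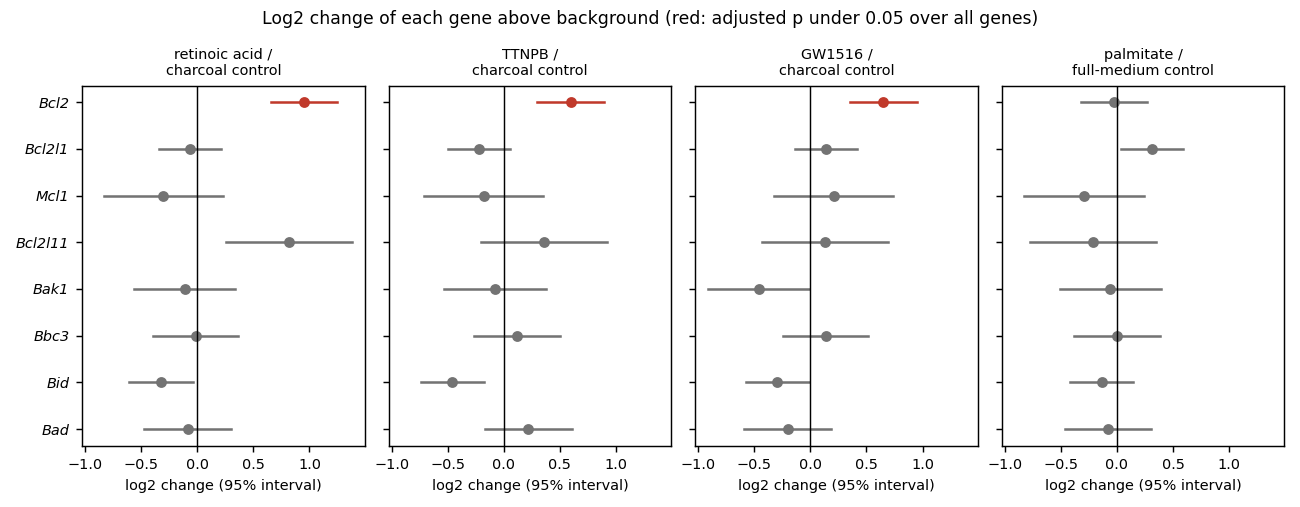
Log2 change of the 8 BCL2 family genes above background in each comparison (horizontal axis, 1 panel per comparison), with 95% intervals as bars. Red points passed an adjusted p of 0.05: Bcl2 is the red point in each of the 3 ligand panels, and the palmitate panel has none.

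Over the 9 measured members the median log2 change was -0.07 with retinoic acid, against -0.03 over all genes, -0.06 with TTNPB, against 0.00, 0.13 with GW1516, against -0.01, and -0.06 with palmitate, against 0.00. The TTNPB median is the value of Pmaip1, which was under background, and the GW1516 median is that of Bcl2l11, which turned on replicate 3. Over the 8 members above background the medians were -0.08, 0.02, 0.13 and -0.07 in that order. Over all genes above background they were 0.03, 0.002, 0.003 and -0.04.

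The promoter windows of Bcl2 and Bcl2l11 are shown because these genes had the highest changes with retinoic acid. Each is the 250 bases before the start site (RefSeq, GRCm38.p6), 5′ to 3′ on the gene's strand. Bcl2 is chr1:106714291-106714540 on the minus strand and Bcl2l11 is chr2:128125788-128126037 on the plus strand. Capitals mark GGGCGG on either strand, the GC box bound by SP1, and GTAAACA, the core bound by FOXO factors.
Bcl2: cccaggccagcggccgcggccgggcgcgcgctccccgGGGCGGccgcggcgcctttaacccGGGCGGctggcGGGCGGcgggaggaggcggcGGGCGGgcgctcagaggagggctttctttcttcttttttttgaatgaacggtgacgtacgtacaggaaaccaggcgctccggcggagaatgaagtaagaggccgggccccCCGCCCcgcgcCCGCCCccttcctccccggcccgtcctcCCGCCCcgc
Bcl2l11: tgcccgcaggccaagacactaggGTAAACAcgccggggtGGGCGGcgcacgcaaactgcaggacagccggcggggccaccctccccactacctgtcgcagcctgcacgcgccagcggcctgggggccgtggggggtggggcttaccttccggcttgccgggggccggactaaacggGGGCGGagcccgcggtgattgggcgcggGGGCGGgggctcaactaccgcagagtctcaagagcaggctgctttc

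The Bcl2 window was 74.8% G and C and held GGGCGG 7 times, on both strands. The Bcl2l11 window was 72% G and C and held GGGCGG 3 times and GTAAACA once, 227 bases before the start. Bcl2l11 is a textbook FOXO3 target. Neither motif was particular to these genes within the family. A Bbc3 window also held GTAAACA once, and the Bbc3 windows held GGGCGG 5, 1 and 7 times. The Bid window and a Bad window held GGGCGG 3 times, while the windows of Bcl2l1 and Bak1 did not hold it. GGGCGG was found in 32.7% and GTAAACA in 3.17% of 32851 RefSeq promoter windows of the same length. The nuclear receptor hexamers AGGTCA (14% of windows) and GGGTCA (11.6%) were in neither window shown (a second Bcl2l11 window, at a start site further along the gene, held GGGTCA once), nor was TGATGNAA (3.45%), the composite element of C/EBP and ATF factors. Over 15 windows of 9 of the 10 listed genes, all but Pmaip1 and with Bax included, AGGTCA was in 1 and GGGTCA in 4. Direct repeats of AGGTCA with 1, 2 or 5 bases of any kind between the copies, the arrangements that PPAR and RAR dimers bind (in 0.0335%, 0.00913% and 0.00913% of all windows), were in none of them. Both strands were searched, and each repeat also contains the hexamer.

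Retinoic acid and TTNPB, a natural and a synthetic RAR agonist, were given at the same dose and time, and theirs was the only pair of related compounds compared. No member passed, against 0.153% of all genes (1 had an unadjusted limma p below 0.05, against 7.27% of all genes). Bcl2 was higher with retinoic acid than with TTNPB on every array, by 0.36 (interval 0.06 to 0.65, unadjusted p = 0.0215, limma adjusted p = 0.556), and Bcl2l11 likewise by 0.46 (interval -0.10 to 1.02, adjusted p = 0.762). These were 2 of 9 measured members without overlap, against 16.2% of all genes. For Bid the difference was 0.14 (interval -0.15 to 0.42). The intervals do not show that the compounds act alike on these genes.

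The genes whose 4 log2 changes lay closest to those of Bcl2 were Ccdc66, Ckap5, Add3, Scyl2 and Atad2b. Likeness was the root mean square distance over the comparisons of retinoic acid, TTNPB, GW1516 and palmitate with their controls. It was taken among 9415 genes above background in each, with genes of provisional names left out. The distances were 0.0452 for Ccdc66, 0.0596 for Ckap5, 0.0623 for Add3, 0.0643 for Scyl2 and 0.0681 for Atad2b. All are below the SE of a single Bcl2 change (0.14), so the order of these genes is uncertain. Ccdc66, for example, changed by 0.98, 0.67, 0.63 and 0.01 in that order, where Bcl2 had 0.95, 0.60, 0.65 and -0.03.

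Around the family, the apoptosis genes that passed in a ligand or palmitate comparison were, apart from Bnip3, in the lists of transcription factors that control its genes and of proteins that bind or modify its members. Of 14 measured transcription factors with such a role, 2 rose and 2 fell with retinoic acid, 1 rose and 2 fell with TTNPB, and 1 rose with GW1516. Over all genes 5.29%, 1.26% and 2.57% passed in that order. Ddit3, which encodes CHOP, a stress factor known to repress Bcl2 and induce Bcl2l11, rose with each ligand. Its log2 level was 4.95 ± 0.11 with retinoic acid, 4.99 ± 0.10 with TTNPB and 4.96 ± 0.09 with GW1516, against 3.86 ± 0.24 in charcoal controls (SD, n = 3 each). Its log2 changes were 1.08, 1.12 and 1.09, with limma adjusted p of 0.000257, 0.000677 and 0.000984 in the same order, and the GW1516 call was lost on the comparison's own 6 arrays (0.197).

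Atf3, a stress-induced partner of CHOP, rose with retinoic acid by 0.68 (limma adjusted p = 0.000562), a call kept in all 16 other settings. Myc, a driver of growth that also sensitizes cells to apoptosis, fell with retinoic acid (log2 change -0.54, adjusted p = 0.0173) and TTNPB (-0.59, 0.0284). Rela, the NF-kB subunit p65, fell as well (-0.35 and 0.0143 with retinoic acid, -0.35 and 0.0393 with TTNPB). These calls depended on single arrays. With retinoic acid, Myc lost its call without charcoal control 2 or 3 or retinoic acid replicate 1 or 3 (adjusted p = 0.0618 to 0.0739), and Rela without charcoal control 1 or 3 or retinoic acid replicate 1 or 2 (0.0511 to 0.0694). With TTNPB, Myc and Rela lost theirs without any 1 charcoal control and without TTNPB replicate 1 or 2 (0.0625 to 0.131 for Myc and 0.0612 to 0.216 for Rela). After the arrays were centred on their medians neither gene passed with retinoic acid (0.155 for Myc and 0.152 for Rela) or TTNPB (0.19 and 0.219). On the charcoal arrays alone Myc did not pass with retinoic acid (0.055) or TTNPB (0.0888), nor did Rela with TTNPB (0.0869). With palmitate none of the 14 passed, against 0.681% of all genes (5 at an unadjusted limma p below 0.05, against 7% of all genes). Ddit3 changed by 0.25 with palmitate without passing (adjusted p = 0.918).

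Of 14 measured enzymes and partners of the family, 3 rose with retinoic acid, 1 with TTNPB and 1 with GW1516, and 2 fell with palmitate. The shares of all genes that passed were 5.29%, 1.26%, 2.57% and 0.681% in that order. Usp9x, a deubiquitinase that stabilizes MCL1, rose by 0.87 with retinoic acid (limma adjusted p = 0.0134) and by 1.27 with GW1516 (0.00236). Mapk8, the kinase JNK1 that phosphorylates BCL2 and BIM, rose with retinoic acid by 0.87 (0.0205), and Tmbim6, an inhibitor of BAX-induced death, by 0.33 with retinoic acid (0.0348) and 0.39 with TTNPB (0.0349). Huwe1, the ubiquitin ligase that marks MCL1 for destruction, fell with palmitate by 0.54 on the log2 scale (0.0487), and Ywhaz, an adaptor that holds phosphorylated BAD, by 0.39 (0.00968). Single arrays decided most of these calls, though not that of Usp9x with GW1516 (lost on the comparison's own 6 arrays, 0.215). With retinoic acid, Usp9x lost its call without charcoal control 1 (adjusted p = 0.0529) or 2 (0.0885) or retinoic acid replicate 1 (0.0643) or 2 (0.0692). Mapk8 lost its call without charcoal control 2 (0.126) or retinoic acid replicate 1 (0.128) or 2 (0.0789). Tmbim6 lost its call without charcoal control 2 or 3 or any array of the ligand group, at 0.0573 to 0.196 with retinoic acid and 0.0717 to 0.156 with TTNPB. With palmitate, Huwe1 lost its call without full-medium control 2 (0.273) or 3 (0.153) or any palmitate array (0.0835 to 0.193), and Ywhaz without full-medium control 3 (0.0744) or palmitate replicate 1 (0.0536). On the 6 full-medium arrays alone neither passed (0.237 for Huwe1 and 0.146 for Ywhaz). After the arrays were centred on their medians Huwe1 (0.128) and Ywhaz (0.0901) did not pass, nor did Tmbim6 with retinoic acid (0.106) or TTNPB (0.221). Ywhaz also lost its call with the mean of all its probe sets (0.176), and Huwe1 after quantile normalization (0.143).

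Of 11 further BCL2 family genes measured (6 above background in charcoal serum), Bnip3 was the one that passed, with GW1516, against 2.57% of all genes. Bnip3 encodes a mitochondrial BH3-like protein of hypoxia and mitophagy, and its log2 change was 0.62 (limma adjusted p = 0.0227, and 0.0901 without charcoal control 3, 0.0567 without charcoal control 2 and 0.061 without GW1516 replicate 2). The call was also lost on the comparison's own 6 arrays (0.335), on the charcoal arrays alone (0.0635) and after quantile normalization (0.0584). Among 12 apoptosome, caspase and mitochondrial death genes none passed limma's test with any ligand or palmitate, and 0, 2, 2 and 1 had an unadjusted p below 0.05 with retinoic acid, TTNPB, GW1516 and palmitate. Among 6 inhibitor of apoptosis genes none passed (2, 2, 2 and 1 unadjusted), with Birc5, the gene of survivin, at log2 changes of 0.36, 0.45, 0.44 and 0.44 (adjusted p = 0.137, 0.12, 0.0814 and 0.189). Among 7 death receptor genes none passed (2, 1, 2 and 0 unadjusted). At that unadjusted level the shares of all genes were 16.4%, 11.2%, 15.4% and 7% in the same order.

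**Figure D4:**
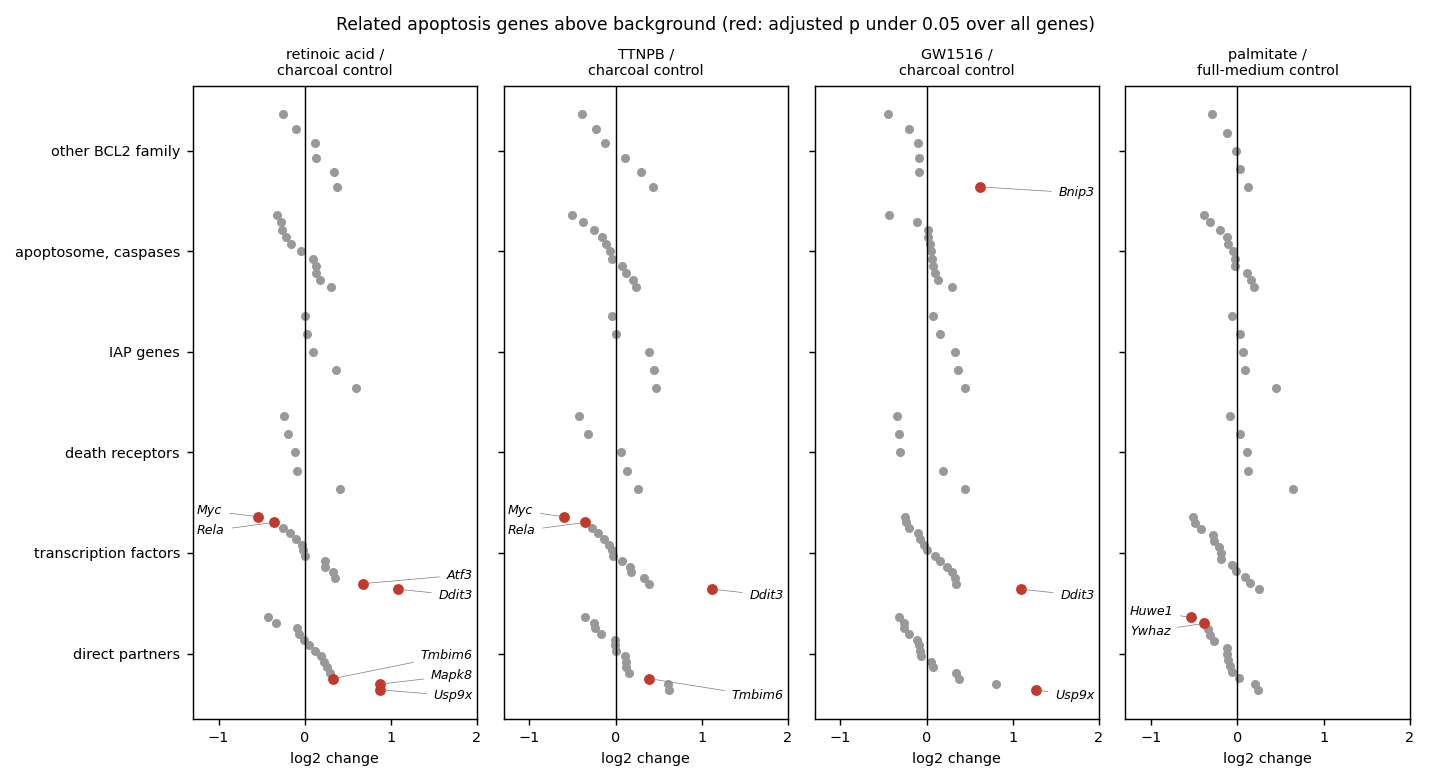
Log2 change (horizontal axis) of each gene above background in the lists around the BCL2 family, 1 panel per comparison and 1 band of points per list (IAP, inhibitor of apoptosis). Red named points passed an adjusted p of 0.05: Ddit3 lies between 1.08 and 1.12 in the 3 ligand panels, and the bands of caspases, IAP genes and death receptors have no red point.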

How the data were processed

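The authors deposited log2 values of 41345 probe sets on each of 18 arrays. The submitters' processing notes name Partek; its version, background correction and normalization are not given in the sources used here, and the range of the deposited values gave the log2 scale. Per the labels' protocols, biotinylated cRNA was made from total RNA.

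From these, 23521 probe sets with 1 gene symbol were kept (1814 had several and 16010 none). Entrez numbers updated the symbols of 23328, and the probe set with the highest mean was used for 1082 genes with several, which gave 22180 genes. A probe set shared by Bad and another gene was not used. Dim genes stayed in, and background came from 1390 receptor genes. limma 3.58.1 (R 4.3.3) fitted 6 group means over the whole set of 18 arrays (trended variances, 12 residual degrees of freedom), with 2-sided p-values adjusted by Benjamini-Hochberg over all genes of a contrast, threshold 0.05. Array number limits the precision.

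The members and the gene lists were chosen with earlier results of these data known. All members are named, and from each further list up to 4 genes past the threshold per comparison; Ddit3 with palmitate and Birc5 were picked with their values in view. Alternative settings were fits on fewer arrays, a replicate block, no variance trend, quantile normalization within a serum, median centring, dim genes left out, other probe set rules, and arrays left out. The code was tested on simulated data. Promoters were taken from RefSeq.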

Additional observations from a re-analysis of the deposited data

Results flagged for a closer look

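For Bcl2 the effects of palmitate and of retinoic acid differed by a test of the difference itself. The palmitate effect minus the retinoic acid effect was -0.98 on the log2 scale (limma adjusted p = 0.0118), from a change of -0.03 with palmitate and of 0.95 with retinoic acid, each against the control in its own serum. Of the 3 palmitate arrays, 2 lay within the range of the full-medium controls and 1 below it, while 3 of 3 retinoic acid arrays lay above all charcoal controls. With the mean of both Bcl2 probe sets the difference was -0.43 and did not pass (limma adjusted p = 0.326). The serum, the dose and the median log2 value of the arrays differ between the comparisons and cannot be told apart from the ligand. That median was 1.06 to 1.32 in charcoal-treated serum and 0.47 to 0.55 in full medium.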

How the results depend on the processing

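No member's call turned round under any setting. Over 1091 member results under another setting, 998 kept their direction and call, 6 gained a call, 17 lost one and 70 differed in sign with neither value called; for palmitate and for retinoic acid against TTNPB the lowest adjusted p of a member was 0.337 and 0.125. The number of members called was 1 with retinoic acid (1 to 1 with an array left out, 2 on the comparison's own arrays, 3 without GW1516 replicate 3 and palmitate replicate 2). With TTNPB it was 1 (0 to 0 with an array left out, 0 on the charcoal arrays alone, with the replicate block, after centring and with the mean of all probe sets, 2 on its own arrays, after quantile normalization and without those 2 arrays). With GW1516 it was 1 (0 to 1 with an array left out, 0 on its own arrays, after centring and with the mean of probe sets), and for the palmitate effect minus the retinoic acid effect 1 (0 with the mean of probe sets). The mean of probe sets brings in the Bcl2 probe set under background. Genes called in all were 1174 with retinoic acid, 279 with TTNPB, 570 with GW1516, 151 with palmitate, 34 between retinoic acid and TTNPB, and 568 and 280 for the palmitate effect minus those of retinoic acid and GW1516. On each comparison's own arrays they were 1852 with retinoic acid, 498 with TTNPB, 3 with GW1516, 1 with palmitate (also 1 on the full-medium arrays alone), 249 between retinoic acid and TTNPB, and 982 and 8 for the differences of effects. Without GW1516 replicate 3 and palmitate replicate 2 they were 2201 (retinoic acid), 972 (TTNPB), 365 (palmitate), 178 (between retinoic acid and TTNPB), 1145 and 491. After centring they were 101 (TTNPB), 299 (GW1516), 32 (palmitate), 20, 322 and 71, and with dim genes left out 454 (TTNPB), 872 (GW1516), 228 (palmitate) and 425 (palmitate minus GW1516). With an array left out they ran from 583 to 932 with retinoic acid, 112 to 170 with TTNPB, 198 to 711 with GW1516, 62 to 141 with palmitate, 9 to 24 between retinoic acid and TTNPB, 306 to 496 and 125 to 611 for the differences of effects. The share of calls that were higher was 72.2% as deposited, 56.8% after quantile normalization and 84.5% after centring with retinoic acid, 73.5%, 57.0% and 84.9% with GW1516, and 70.6%, 50% and 85% between retinoic acid and TTNPB. With palmitate it was 21.2% as deposited and 32.9% after quantile normalization, and for the differences of effects 19.2% and 40.1%, and 16.4% and 34.9%. Same-numbered arrays did not deviate together (correlations -0.28 to 0.21, 5 of 21 over 0.1, 4 of 18 arrays closest to their own number), so the numbers give no pairing; with the replicate block 1031, 198, 498 and 112 genes were called with retinoic acid, TTNPB, GW1516 and palmitate. The causes of these moves were not tested. Values near background limit Bbc3 and Bad.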
